A study of Homo sapiens with 9 samples.

Results

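The 10 genes described here carry long-chain fatty acids into the cell, bind them in the cytosol and join them to coenzyme A. They were taken by name from a table of 19317 genes measured in HepG2, a widely used human line that was established from a liver carcinoma. Uptake is represented by CD36, SLC27A2, SLC27A4 and SLC27A5, binding by FABP1 and FABP5, and activation by ACSL1, ACSL3, ACSL4 and ACSL5. All 10 were found, all had counts in all 9 libraries, and all 10 passed the filter on low counts. Each gene below is placed by its GENCODE release 29 coordinates on GRCh38.

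Fatty acids reach hepatocytes from the circulation or are made inside the cell from acetyl-CoA. CD36, a scavenger receptor also called fatty acid translocase, and the SLC27 family of fatty acid transport proteins (FATPs) favour their entry at the membrane. Fatty acid binding proteins (FABPs) hold the free acids in solution, and the long-chain acyl-CoA synthetases (ACSLs) trap them as acyl-CoA, the form that enters triglyceride and phospholipid synthesis, β-oxidation and cholesterol esters. FATPs also have acyl-CoA synthetase activity, so uptake and activation are coupled steps.

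The study compared a model of activated de novo lipogenesis and a fatty acid loading model with control HepG2 cells, 3 samples in each of 3 groups. DNL cells were kept for 1 week in DMEM that contained insulin (10 µg/ml) and T0901317 (10 µM), which activates the liver X receptors (LXR). OA cells were exposed for 6 hours, also in DMEM, to oleic acid (25 µM) that had been dissolved with 11% bovine serum albumin. WT cells were controls kept in RPMI, without insulin, T0901317 or oleic acid as far as the treatment label of each sample says. A general protocol field gives the DNL recipe for all 9 samples, which conflicts with those labels for OA and WT, and the groups here follow the titles and each sample's own label. All groups are the same cell line with no genetic change labelled, with 10% serum and 1% antibiotics in the medium. No sample received the albumin alone, and the medium differs between each model and WT, so those parts of each treatment cannot be told apart. DNL and OA share DMEM and differ in both the added compounds and the duration. No label says that the replicates were separate cultures, so the spread behind the p-values may be technical.

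Stranded libraries were made from total RNA after ribosomal depletion. The summed estimated counts per library ran between 16447398 and 36147431 for DNL, between 7836520 and 28636903 for OA and between 26425694 and 43043347 for WT. Levels below are CPM, counts scaled to a common library total with factors from the trimmed mean of M values, and 3 counts, the limit that a count of 0 allows, were worth 0.0691 to 0.356 CPM. Hepatocyte markers all had counts, and the summed level of the 10, mostly APOB, ran from 77600 to 79700 CPM in DNL, 14300 to 16300 CPM in OA and 43700 to 45300 CPM in WT. The 6 fibroblast markers summed to 3.16 to 3.39 CPM in DNL, to 36.7, 142 and 875 CPM in OA replicates 1, 2 and 3, and to 10.8 to 14.9 CPM in WT, so the OA libraries stand apart from the others, replicates 2 and 3 most. COL1A1 ran from 19.4 CPM in OA replicate 1 to 537 CPM in OA replicate 3, against at most 0.706 CPM in DNL and 0.990 CPM in WT. Values without OA replicates 2 and 3 therefore still rest on a library with this signal. The OA sum was mostly COL1A1, COL1A2 and COL3A1, at 214, 104 and 26.3 CPM on average. PDGFRB was instead highest in WT, at 1.04 CPM in DNL, 4.77 CPM in OA and 9.93 CPM in WT on average. DCN averaged 2.73 CPM in OA, and LUM was at most 0.713 CPM there. The 7 macrophage markers summed to 1620 to 1710 CPM in DNL, 1060 to 1090 CPM in OA and 979 to 990 CPM in WT, with CD163 and MARCO at 0. Nearly all of it was LYZ, at 1637 CPM in DNL, 1028 CPM in OA and 940.5 CPM in WT on average, while CD68 averaged 32.1 CPM in DNL, 46.1 CPM in OA and 40.6 CPM in WT, and PTPRC stayed below 1 CPM. The 6 adipocyte markers summed to 16.4 to 17.2 CPM in DNL, 17.0 to 20.6 CPM in OA and 13.9 to 15.8 CPM in WT, with FABP4 and LPL at 0. The 6 endothelial markers summed to 5.33 to 6.92 CPM in DNL, 0.955 to 2.38 CPM in OA and 1.54 to 1.96 CPM in WT. These are bulk samples, in which fewer cells expressing a gene and less RNA of it per cell cannot be told apart.

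In DNL cells against WT cells, 7 of the 10 genes rose and 2 fell, at a Benjamini-Hochberg adjusted p under 0.05 in edgeR's quasi-likelihood test over all 13636 genes tested. CD36, SLC27A2, FABP1, FABP5, ACSL1, ACSL3 and ACSL4 rose, SLC27A4 and ACSL5 fell, and SLC27A5 did not pass. Of all genes tested, 53.8% were called in this comparison, 27.1% as higher and 26.8% as lower. FABP1, SLC27A4 and ACSL3 were called and differed by at least 2-fold, a size and call that 12.3% of all genes had. The median log2 fold change was 0.581 over the 10 genes and -0.018 over all genes.

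In OA cells against the same WT cells, 2 of the 10 genes rose and 7 fell. FABP5 and ACSL1 rose, SLC27A2, SLC27A4, SLC27A5, FABP1, ACSL3, ACSL4 and ACSL5 fell, and CD36 did not pass. Of all genes tested, 60.0% were called, 30.4% as higher and 29.7% as lower. SLC27A5, FABP1 and ACSL4 were called and differed by at least 2-fold, as did 16.8% of all genes. The median log2 fold change was -0.369 over the 10 genes and -0.029 over all genes. Without OA replicates 2 and 3 none of the log2 fold changes of the 10 genes reversed. The call of ACSL5 was lost without WT replicate 1, and CD36 was called higher without OA replicate 2.

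Between the models, DNL was above OA for 6 of the 10 genes and below it for 3. CD36, SLC27A2, SLC27A5, FABP1, ACSL3 and ACSL4 were higher, SLC27A4, FABP5 and ACSL5 were lower, and ACSL1 did not pass. Of all genes tested, 62.8% were called, 31.9% as higher and 30.9% as lower. A call with at least a 2-fold difference was made for SLC27A2, SLC27A5, FABP1, ACSL3 and ACSL4, and for 20.1% of all genes. The median log2 fold change was 0.748 over the 10 genes and 0.013 over all genes. The calls of CD36, SLC27A5 and FABP5 were the weakest. Without OA replicates 2 and 3 their log2 differences of DNL from OA were 0.334, 0.837 and -0.273. Scaling by library totals alone put the median log2 fold change of all genes at -0.18 in DNL against WT, 0.038 in OA against WT and -0.22 in DNL against OA. Calls were then higher in 32.2%, 56.5% and 33.9% of cases, against 50.3%, 50.5% and 50.8% with the scaling used here, and DNL against OA then had 4 genes higher and 4 lower, with ACSL1 among the lower genes. The comparisons with WT share the WT samples, so their values are given side by side and are not independent. Whether the libraries of groups overlap is stated below gene by gene. The share of all genes without overlap was not counted, so this is no trait of the 10 genes.

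**Figure D1:**
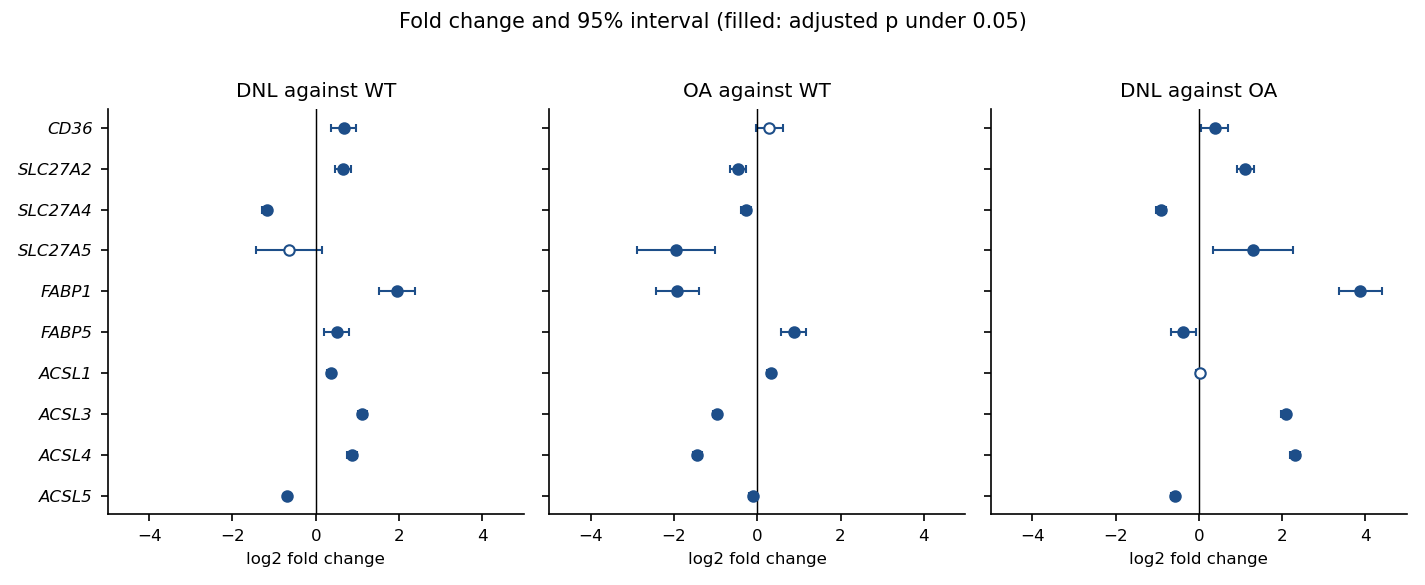
Log2 fold changes of the 10 genes in DNL against WT, OA against WT and DNL against OA, with 95% intervals as bars and filled points for an adjusted p under 0.05 (edgeR). SLC27A2, FABP1, ACSL3 and ACSL4 lie above 0 in DNL against WT and below 0 in OA against WT. SLC27A4 and ACSL5 lie below 0 in both, as does SLC27A5, which was not called in DNL against WT.

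FABP1, ACSL3 and ACSL4 had the largest differences between the models and had the order DNL, WT, OA from high to low in common. SLC27A2 had this order too, with a smaller difference between the models. The RefSeq sequences 250 bases upstream of the start sites of FABP1, ACSL3 and ACSL4 on GRCh38.p14 are shown. Each is given 5′ to 3′ on the strand of its gene, with the capitals marking matches to the motifs searched. FABP1 is on the minus strand at chr2:88128063-88128312, ACSL3 on the plus strand at chr2:222860786-222861035 and ACSL4 on the minus strand at chrX:109733258-109733507.
FABP1: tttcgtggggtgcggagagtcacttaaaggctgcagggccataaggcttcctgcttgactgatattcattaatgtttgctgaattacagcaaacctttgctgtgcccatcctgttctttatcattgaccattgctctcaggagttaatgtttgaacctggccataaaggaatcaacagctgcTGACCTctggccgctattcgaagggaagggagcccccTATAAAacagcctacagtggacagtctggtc
ACSL3: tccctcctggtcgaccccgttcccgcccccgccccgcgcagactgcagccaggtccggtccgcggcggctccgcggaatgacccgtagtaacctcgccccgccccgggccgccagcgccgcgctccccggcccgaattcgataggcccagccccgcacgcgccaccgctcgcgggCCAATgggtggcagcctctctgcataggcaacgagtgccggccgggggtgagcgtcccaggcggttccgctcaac
ACSL4: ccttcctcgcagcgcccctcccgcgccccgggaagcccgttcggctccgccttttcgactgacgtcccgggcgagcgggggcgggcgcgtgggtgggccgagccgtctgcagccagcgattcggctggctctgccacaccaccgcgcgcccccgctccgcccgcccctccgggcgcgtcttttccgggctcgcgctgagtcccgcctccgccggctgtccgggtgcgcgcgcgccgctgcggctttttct

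Windows of 300 bases, from 250 before to 50 after the start site, were searched on both strands for 7 motifs in 9 of the 10 genes and in all 35116 windows of the RefSeq table. The FABP1 window was 50% GC with 7 CpG dinucleotides and had TATAAA at position -31 and the nuclear receptor hexamer AGGTCA at -68, where it reads TGACCT on the strand printed, and again at 12 after the start. TATAAA was in 11.5% of all windows and also in windows of CD36 and ACSL1. CD36, ACSL1 and ACSL5 had several windows each, the other genes searched a single window, and FABP5 had none. A match somewhere in a gene with several windows is therefore not comparable with a share of windows. AGGTCA was in 13.8% of all windows and also at -223 of ACSL5, a gene that fell in DNL. The ACSL3 window was 74% GC with 41 CpG dinucleotides and held CCAAT at -75, a motif of 34.6% of windows that CD36, SLC27A5 and ACSL1 held too. The ACSL4 window was 77.7% GC with 51 CpG dinucleotides and held no match to any motif searched. The SLC27A2 window was 65% GC with 23 CpG dinucleotides and held no match either. The LXR element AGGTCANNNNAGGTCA was in 0.0199% of all windows and the PPAR element AGGTCANAGGTCA in 0.0228%, and neither was found in the 9 genes. Both are direct repeats of the hexamer AGGTCA, so a match to either also counts for the hexamer. The E-box CACGTG, in 7.26% of windows, had none either. The sterol regulatory element TCACNCCAC, in 1.13% of windows, was in 1 ACSL1 window at -242. Matches are descriptions of letters in these windows only.

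**Figure D2:**
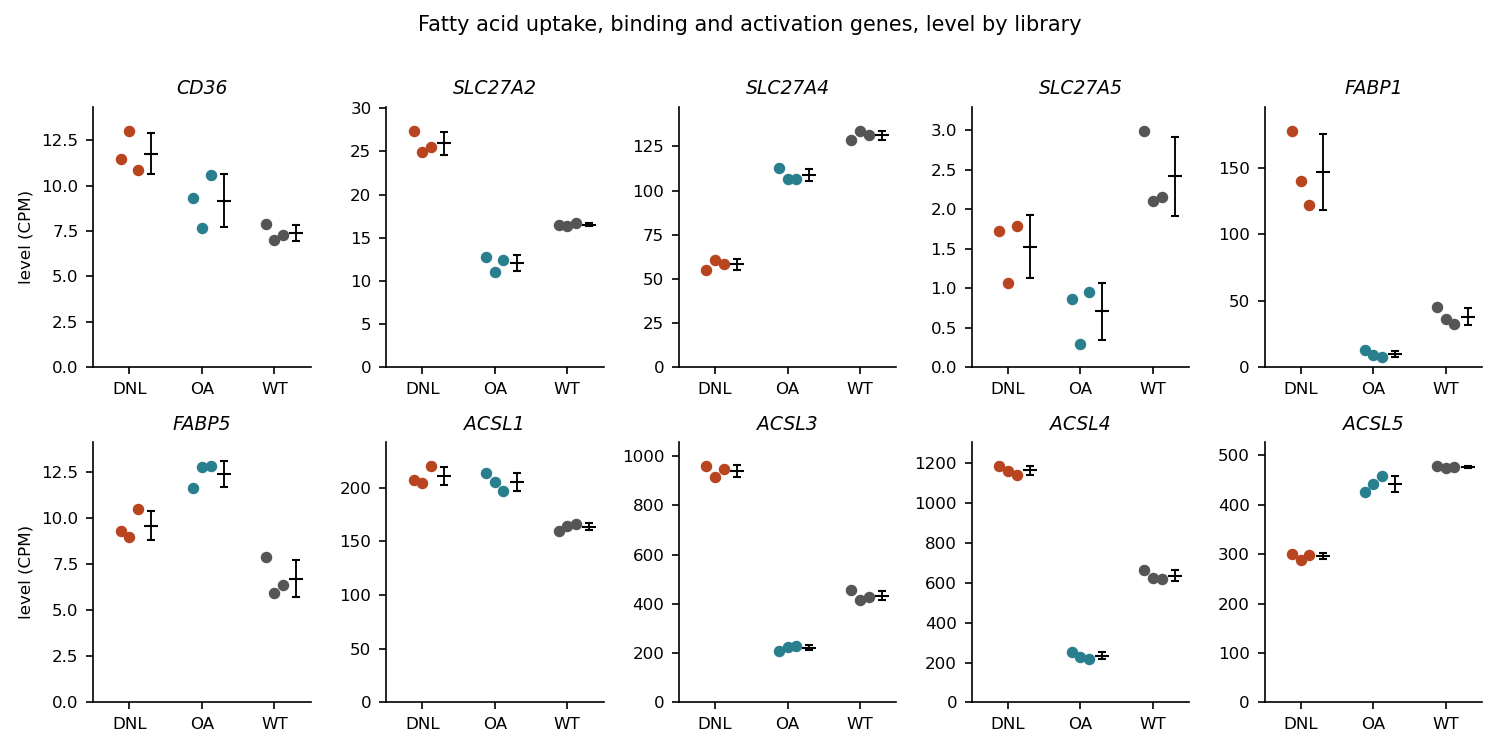
Level of each of the 10 genes in CPM, with 1 point per library in DNL, OA and WT from left to right and the mean and SD of each group. The 3 libraries of a group lie close together for most genes, and groups overlap only for CD36 between OA and WT and for ACSL1 between DNL and OA. The share of all genes whose groups do not overlap was not counted, so this describes the 10 genes only.

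CD36 (ENSG00000135218, chromosome 7, 80369575 to 80679277) was expressed at a low level. Its level was 11.5, 13.0 and 10.9 CPM in DNL, 9.32, 7.68 and 10.6 CPM in OA, and 7.87, 7.01 and 7.28 CPM in WT, from 89 to 372 counts per library. Every DNL library lay above every OA and WT library, while OA and WT overlapped. CD36 was 1.59-fold higher in DNL than in WT (log2 fold change 0.67, SE 0.142, adjusted p = 0.00147). The log2 difference of OA from WT was 0.29, with a 95% interval of -0.0265 to 0.610 (adjusted p = 0.104), and without OA replicate 2 it was 0.42 (adjusted p = 0.0322). The log2 difference of DNL from OA was 0.38 (SE 0.146, adjusted p = 0.0394), and the call was lost with any 1 of DNL replicates 1 and 2, OA replicates 1 and 2 and WT replicate 3 left out, where the adjusted p was 0.0521 to 0.183, and with library totals (0.425). GNAT3, which overlaps CD36 on the opposite strand, had 0 counts in every library.

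SLC27A2, which encodes FATP2, a transport protein of liver and kidney with activity on very long-chain acids (ENSG00000140284, chromosome 15, 50182196 to 50236395), had 27.4, 25.0 and 25.5 CPM in DNL, 12.7, 11.0 and 12.5 CPM in OA, and 16.5, 16.3 and 16.7 CPM in WT. The 3 groups did not overlap, with DNL above and OA below WT. SLC27A2 rose 1.57-fold in DNL against WT (log2 fold change 0.65, SE 0.0862, adjusted p = 3.09e-05). It was 1.38-fold lower in OA than in WT (log2 fold change -0.47, SE 0.0924, adjusted p = 0.000724). Between the models it was 2.17-fold higher in DNL than in OA (adjusted p = 2.48e-07). ATP8B4, which overlaps SLC27A2 on the opposite strand, had at most 0.466 CPM in any library.

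SLC27A4, which encodes FATP4, a more widely expressed transport protein (ENSG00000167114, chromosome 9, 128340646 to 128361470), went the other way in DNL. It had 55.0, 60.9 and 58.5 CPM in DNL, 113, 107 and 107 CPM in OA, and 129, 134 and 131 CPM in WT. The DNL libraries were the lowest and the groups did not overlap. SLC27A4 was 2.26-fold lower in DNL than in WT (log2 fold change -1.18, SE 0.0516, adjusted p = 1.08e-09) and 1.88-fold lower in DNL than in OA (adjusted p = 7.88e-09). In OA it was 1.21-fold lower than in WT (log2 fold change -0.27, SE 0.0509, adjusted p = 0.000476).

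SLC27A5, which encodes FATP5, a liver protein that also conjugates bile acids to coenzyme A (ENSG00000083807, chromosome 19, 58479512 to 58512413), was the lowest of the 10 genes, with 8 to 130 counts per library. Its level was 1.73, 1.07 and 1.79 CPM in DNL, 0.869, 0.297 and 0.950 CPM in OA, and 2.99, 2.10 and 2.16 CPM in WT. OA was the lowest group without overlap, and OA replicate 2 was the lowest library. The 3.85-fold lower level in OA than in WT passed the test (log2 fold change -1.94, SE 0.429, adjusted p = 0.0016) and was called with any single library left out. The log2 difference of DNL from WT was -0.65, with a 95% interval of -1.44 to 0.152 (adjusted p = 0.158). DNL was 2.46-fold higher than OA (adjusted p = 0.0206), but without OA replicate 2 the log2 difference was 0.77 instead of 1.30 and the call was lost (adjusted p = 0.115), as it was without DNL replicate 1 (0.0608) or 3 (0.0599) and with library totals (0.0501). ZNF446, which overlaps SLC27A5 on the opposite strand, had 2.12 ± 0.640 CPM in DNL, 4.05 ± 0.133 CPM in OA and 3.25 ± 0.534 CPM in WT (mean and SD over 3 libraries), and whether its reads enter the SLC27A5 count was not tested.

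FABP1, the liver fatty acid binding protein and the main cytosolic carrier of fatty acids in hepatocytes (ENSG00000163586, chromosome 2, 88122982 to 88128116), had the widest spread between groups of the 10 genes. Its level was 178, 140 and 122 CPM in DNL, 12.8, 9.39 and 7.72 CPM in OA, and 45.0, 36.5 and 32.7 CPM in WT. No group overlapped another, and the lowest DNL library was above the highest WT library. FABP1 rose 3.86-fold in DNL against WT (log2 fold change 1.95, SE 0.186, adjusted p = 3.85e-05) and was 3.80-fold lower in OA than in WT (log2 fold change -1.93, SE 0.224, adjusted p = 0.000103). The gap between the models was 14.7-fold (log2 fold change of DNL against OA 3.87, 95% interval 3.36 to 4.39, adjusted p = 9.39e-07). Leaving out single libraries kept the last log2 difference between 3.71 and 4.05. Its SD, 28.5 CPM in DNL, 2.59 CPM in OA and 6.31 CPM in WT, was a larger part of the mean than for the ACSL genes. Of the 10 hepatocyte markers, 7 had this order with both calls, higher in DNL and lower in OA than in WT, while HNF4A was lower in DNL than in WT, AFP was not called in DNL against WT and TTR not in OA against WT. Their sums were 77600 to 79700 CPM in DNL, 14300 to 16300 CPM in OA and 43700 to 45300 CPM in WT, and their part in the result was not tested.

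FABP5, the epidermal-type binding protein found in many tissues and tumours (ENSG00000164687, chromosome 8, 81280363 to 81284777), had 9.30, 8.98 and 10.5 CPM in DNL, 11.6, 12.8 and 12.8 CPM in OA, and 7.87, 5.92 and 6.36 CPM in WT. Both models lay above WT without overlap, and OA lay above DNL. FABP5 rose 1.84-fold in OA against WT (log2 fold change 0.88, SE 0.141, adjusted p = 0.000135) and 1.42-fold in DNL against WT (log2 fold change 0.51, SE 0.139, adjusted p = 0.00775). The difference of DNL from OA, -0.37 on the log2 scale (adjusted p = 0.036), was lost without DNL replicate 1 or 2 or OA replicate 2 or 3, with an adjusted p of 0.0706 to 0.106. FABP5 has 13 named pseudogenes in GENCODE, none of them in the deposited table, so reads of such copies may have been assigned to FABP5. Its counts were 108 to 387 per library.

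ACSL3, which sits on the endoplasmic reticulum and on forming lipid droplets (ENSG00000123983, chromosome 2, 222860934 to 222944639), had 960.3, 914 and 948 CPM in DNL, 209.5, 225.5 and 229.8 CPM in OA, and 455, 417 and 429.6 CPM in WT. DNL was high and OA low, with no overlap. ACSL3 rose 2.17-fold in DNL against WT (log2 fold change 1.12, SE 0.0451, adjusted p = 5.38e-10) and was 1.96-fold lower in OA than in WT (log2 fold change -0.97, SE 0.0461, adjusted p = 2.02e-09). It was 4.25-fold higher in DNL than in OA (log2 fold change 2.09, SE 0.0472, adjusted p = 1.29e-12).

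ACSL4, which prefers arachidonic acid and is known for its part in ferroptosis (ENSG00000068366, chromosome X, 109624244 to 109733403), followed the same order. Its level was 1187, 1163 and 1142 CPM in DNL, 254.9, 230.0 and 219 CPM in OA, and 666, 625 and 619 CPM in WT. The groups stood apart by far more than the spread within them. ACSL4 rose 1.83-fold in DNL against WT (log2 fold change 0.87, SE 0.0507, adjusted p = 1.56e-08) and was 2.71-fold lower in OA than in WT (log2 fold change -1.44, SE 0.0525, adjusted p = 1.89e-10). DNL exceeded OA by 4.96-fold (log2 fold change 2.31, SE 0.0537, adjusted p = 1.65e-12). KCNE5, which overlaps ACSL4 on the same strand, had at most 2.57 CPM in any library. The 7 hepatocyte markers and the sums given beside FABP1 had the order of ACSL3 and ACSL4 too, and their part was not tested.

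ACSL5, which is found on mitochondria and the endoplasmic reticulum (ENSG00000197142, chromosome 10, 112374018 to 112428380), had 299.9, 289 and 298 CPM in DNL, 425, 443 and 458 CPM in OA, and 479, 474.5 and 477 CPM in WT. DNL lay well below the other groups, and the highest OA library was just below the lowest WT library. ACSL5 was 1.61-fold lower in DNL than in WT (log2 fold change -0.69, SE 0.0367, adjusted p = 6.72e-09) and 1.49-fold lower in DNL than in OA (adjusted p = 1.97e-08). In OA it was 1.08-fold lower than in WT (log2 fold change -0.11, SE 0.0366, adjusted p = 0.021), a call lost without WT replicate 1 (0.0728), with only the OA and WT samples in the fit (0.0689), and with size factors of the DESeq2 type (0.0664) or library totals (0.35). ZDHHC6, which overlaps ACSL5 on the opposite strand, had 45.9, 54.1 and 31.0 CPM on average in DNL, OA and WT.

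ACSL1, the main synthetase of liver and fat tissue, on the endoplasmic reticulum and outer mitochondrial membrane (ENSG00000151726, chromosome 4, 184755595 to 184826818), was modestly higher in both models. Its level was 207, 204.7 and 220.2 CPM in DNL, 213, 204.9 and 197 CPM in OA, and 159.7, 165 and 166 CPM in WT. All 6 libraries of the models lay above all WT libraries, and DNL and OA overlapped. ACSL1 rose 1.29-fold in DNL against WT (log2 fold change 0.37, SE 0.0438, adjusted p = 1.28e-05) and 1.26-fold in OA against WT (log2 fold change 0.33, SE 0.0443, adjusted p = 2.94e-05). The log2 difference of DNL from OA was 0.04, with a 95% interval of -0.0584 to 0.134 (adjusted p = 0.479), but scaling by library totals turned it to -0.20 (adjusted p = 0.00356), beside a median of -0.22 over all genes under that scaling.

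Levels were set against each other per length, as CPM per kilobase of the union of a gene's exons. In DNL the order of mean levels was ACSL4 (182), ACSL3 (130.0), ACSL5 (69.8), FABP1 (59.5), ACSL1 (33.5), SLC27A4 (18.7), SLC27A2 (9.26), FABP5 (4.62), CD36 (1.08) and SLC27A5 (0.190). Of the neighbours in this order, only ACSL5 and FABP1 overlapped. In OA the order was ACSL5 (104), ACSL4 (36.6), SLC27A4 (35.0), ACSL1 (32.6), ACSL3 (30.6), FABP5 (5.97), SLC27A2 (4.31), FABP1 (4.04), CD36 (0.845) and SLC27A5 (0.0879). There ACSL4 and SLC27A4, ACSL1 and ACSL3, and SLC27A2 and FABP1 overlapped. In WT the order was ACSL5 (113), ACSL4 (99.2), ACSL3 (59.9), SLC27A4 (42.2), ACSL1 (26.0), FABP1 (15.4), SLC27A2 (5.90), FABP5 (3.24), CD36 (0.679) and SLC27A5 (0.301), with no overlap between neighbours.

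FABP1 moved most in this order, and its level per length was 59.5 ± 11.5 in DNL, 4.04 ± 1.05 in OA and 15.4 ± 2.55 CPM per kilobase in WT (mean and SD over 3 libraries). CD36 and SLC27A5 were the lowest of the 10 in all 3 groups. The order depends on which length is used. With the principal transcript of each gene, an alternative chosen after the data were seen, FABP1 counts over 555 bases instead of 2470. It then had the highest mean in DNL at 264.8 CPM per kilobase, with 18.0 in OA and 68.5 in WT. Its DNL libraries, at 220.4 to 321.0, overlapped those of ACSL4 at 216.4 to 224.9.

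**Figure D3:**
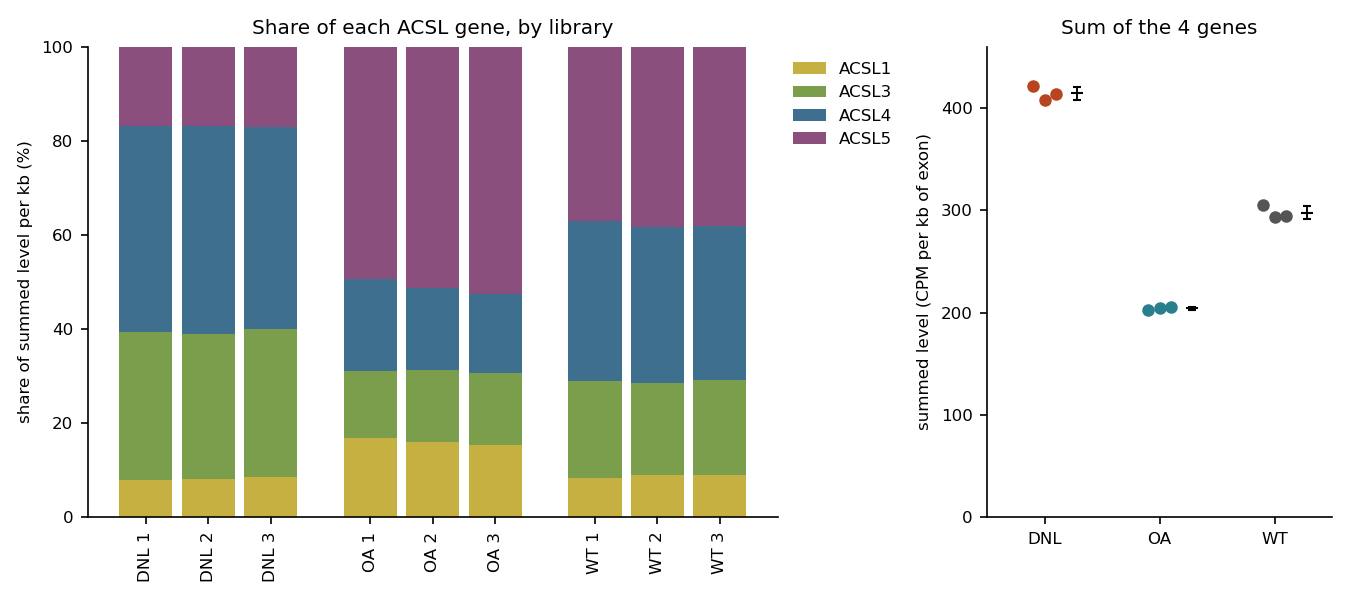
Shares of ACSL1, ACSL3, ACSL4 and ACSL5 in their summed level per kilobase in each library of DNL, OA and WT, in percent, and beside it the sum in CPM per kilobase. ACSL4 is the largest share in DNL, at 43.8% on average, and ACSL5 in OA and WT, at 51.1% and 37.8%.

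The synthetase pool differed in make-up as well as in size. Per length, ACSL4 and ACSL3 made up 43.8% ± 0.719 and 31.3% ± 0.354 of the summed level of the 4 ACSL genes in DNL (SD, n = 3). In OA, ACSL5 alone took 51.1% ± 1.6, while ACSL4 had 17.9% ± 1.5, ACSL1 16.0% ± 0.730 and ACSL3 15.0% ± 0.643. In WT the pool was shared between ACSL5 (37.8% ± 0.659), ACSL4 (33.3% ± 0.648), ACSL3 (20.1% ± 0.487) and ACSL1 (8.74% ± 0.354). ACSL5 had 16.8% ± 0.138 in DNL, and ACSL1 had 8.08% ± 0.332 there. The summed level was 415 ± 6.56 CPM per kilobase in DNL, 204 ± 1.19 in OA and 298 ± 6.48 in WT. ACSL4 had the largest share in DNL, and ACSL5 in OA and WT, under each of the 3 measures of gene length used.

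Ratios between members within a library need no scaling between libraries. The log2 ratio of ACSL4 to ACSL5 counts was 1.98, 2.01 and 1.94 in DNL, -0.739, -0.946 and -1.06 in OA, and 0.475, 0.398 and 0.377 in WT. DNL and OA therefore lay on opposite sides of WT, with differences of 1.56 for DNL and -1.33 for OA. FABP1 over FABP5 averaged 3.92 ± 0.36 in DNL, -0.345 ± 0.44 in OA, against 2.5 ± 0.13 in WT. The OA libraries had 0.14, -0.441 and -0.733, so the liver form had fewer counts there on average but not in replicate 1. Which of these genes is higher per length in OA depends on the length. FABP1 and FABP5 had 4.04 and 5.97 CPM per kilobase with the exon union, and 18.0 and 14.6 with principal transcripts. SLC27A2 over SLC27A4 averaged -1.16 ± 0.14 in DNL, -3.18 ± 0.092 in OA and -2.99 ± 0.04 in WT. ACSL3 over ACSL1 was 2.16 ± 0.054 in DNL, 0.111 ± 0.13 in OA and 1.41 ± 0.09 in WT, each as mean and SD over 3 libraries.

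ACSL1 over ACSL5 was -0.49 ± 0.049 in DNL, -1.11 ± 0.11 in OA and -1.54 ± 0.034 in WT, so both models were above WT. ACSL4 over ACSL3 had the narrowest range of group means among the 6 ratios, at 0.307 ± 0.039 in DNL, 0.0812 ± 0.18 in OA and 0.554 ± 0.03 in WT. With 6 ratios and 3 comparisons each, 18 exact two-sided permutation tests were made, and 3 samples against 3 cannot give a p below 0.1. All permutation tests gave 0.1 (0.106 after adjustment over the 18) except that of ACSL4 over ACSL3 in DNL against OA, where the libraries overlapped (p = 0.2, adjusted 0.2). In the other tests the libraries of the groups compared did not overlap, but groups of this size cannot pass 0.05. The 6 pairs were chosen with earlier results of these data known. The share of other gene pairs without overlap was not counted, so this is no trait of these pairs.

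**Figure D4:**
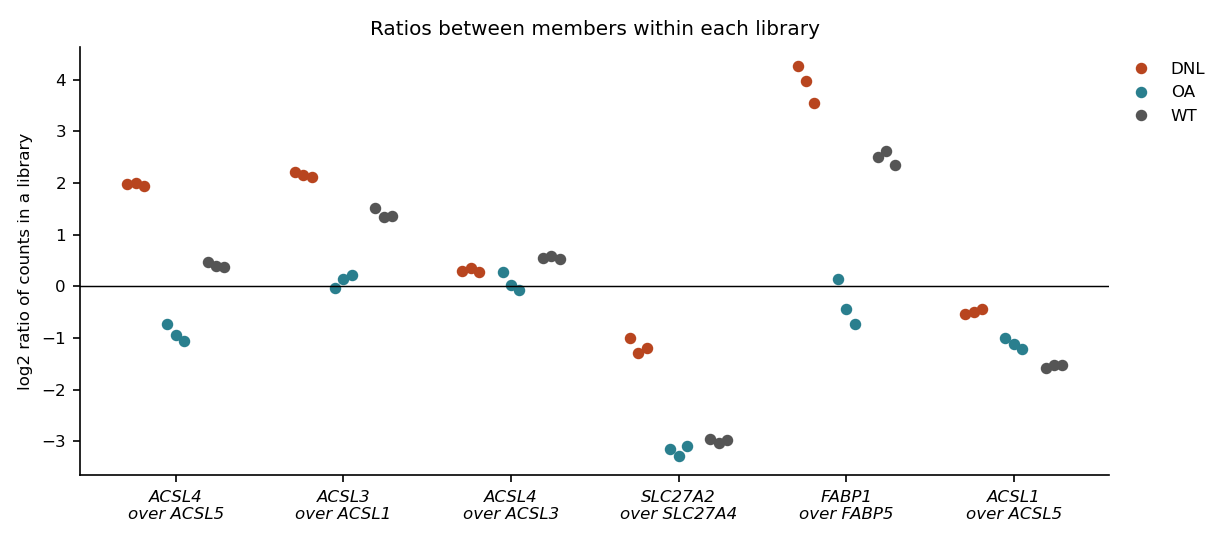
Log2 ratio of counts for 6 pairs of the genes in each library, with DNL, OA and WT from left to right. For ACSL4 over ACSL5 the DNL libraries lie between 1.94 and 2.01, the OA libraries between -1.06 and -0.739 and the WT libraries between 0.377 and 0.475.

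The genes most like each member over the 9 libraries were found by the root mean square (RMS) difference of log2 CPM, each gene centred on its own mean, among 10279 genes with at least 5 CPM in the mean. ACSL3 was nearest to C3 (RMS 0.0826), a complement protein made by the liver, and BCAM (0.0909). ACSL4 was nearest to FGB (0.0934), the fibrinogen beta chain, and F10 (0.0953), coagulation factor X. FABP1 was nearest to SERPINA3 (0.270), a serum protease inhibitor, and BPIFB2 (0.311), at a larger distance. SERPINA3 averaged 2403 CPM in DNL, 225 CPM in OA and 699 CPM in WT. ACSL3 and ACSL4 were 0.212 apart, with ACSL3 the 47th nearest gene to ACSL4.

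SLC27A2 was nearest to PIK3R1 (0.0509) and REEP6 (0.0544), and SLC27A4 to TRMT61A (0.0768) and AURKAIP1 (0.0860). ACSL1 had the closest match of the 10 genes, WDR77 (0.0180), followed by TBCD (0.0259). ACSL5 was nearest to RNF138 (0.0367) and MAP4K3 (0.0419), CD36 to PHF14 (0.0856) and THYN1 (0.0943), FABP5 to PPME1 (0.0921) and FBXO34 (0.0949), and SLC27A5 to MTG1 (0.202) and HOOK2 (0.209). Likeness here is a description of levels over these 9 libraries.

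The other genes of the pathway were taken as 7 lists of 72 genes, of which 57 were tested and 8 had no counts in any library. In DNL against WT, 22 of the 57 rose and 14 fell, and in DNL against OA 27 were higher and 13 lower. In OA against WT 16 rose and 28 fell, and without OA replicates 2 and 3 only 10 rose. With library totals the balance in DNL against WT turned, to 19 higher and 21 lower, and DNL against OA had 24 higher and 17 lower. The medians over the 57 were 0.148 in DNL against WT, -0.387 in OA against WT and 0.232 in DNL against OA, to be read beside those of all genes and the shares of all genes called given above. The FATPs outside the 10 genes had 2 tested of 3. SLC27A1 (FATP1), the insulin-responsive form of muscle and fat, rose in both models, with 13.1 ± 0.766 CPM in DNL, 9.79 ± 1.14 CPM in OA and 6.30 ± 0.829 CPM in WT. Its log2 fold change was 1.06 in DNL against WT (adjusted p = 3.05e-05), 0.64 in OA against WT (adjusted p = 0.0018) and 0.42 in DNL against OA (adjusted p = 0.0204). The last call was lost without DNL replicate 3 (0.0695) or OA replicate 1 (0.0719) and with library totals (0.266), and the call in OA against WT without OA replicates 2 and 3 (log2 fold change 0.43, adjusted p = 0.0934). Of the 8 other FABPs 2 were tested. FABP2, the intestinal form, had 2.24 ± 0.819 CPM in DNL, 0.896 ± 0.233 CPM in OA and 5.54 ± 0.878 CPM in WT, and fell in DNL (log2 fold change -1.29, adjusted p = 0.00154) and in OA (-2.62, adjusted p = 1.11e-05). FABP2 was also higher in DNL than in OA (adjusted p = 0.00297).

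Of 13 other acyl-CoA synthetases tested, 8 rose in DNL against WT and 1 fell, and their median log2 fold change was 0.951. In OA against WT 2 of them rose and 6 fell (median -0.227), and DNL was above OA for 8 and below it for none (median 1.64), while 5 did not pass. Of all genes tested, 53.8%, 60.0% and 62.8% were called in these comparisons, in this order. ACSM1, ACSM2A, ACSM2B and ACSM5 are among the 13, at 2.42, 1.75, 3.19 and 4.57 CPM on average in DNL and at most 0.475 CPM in OA. ACSM2A had 52, 20 and 56 counts in DNL, 11, 3 and 4 in WT and 1, 0 and 0 in OA. It entered the tests through its DNL libraries, so its higher level there was not tested apart from the filter. ACSS2, the cytosolic acetyl-CoA synthetase, had 175 ± 10.5 CPM in DNL, 56.3 ± 2.26 CPM in OA and 30.3 ± 0.474 CPM in WT, a 5.80-fold rise in DNL (adjusted p = 3.54e-12) and a 1.87-fold rise in OA (adjusted p = 3.77e-08) against WT. ACSS1, its mitochondrial relative, had 78.6 ± 1.96 CPM in DNL, 24.4 ± 4.91 CPM in OA and 19.3 ± 1.74 CPM in WT. Its rise in DNL was 4.07-fold (adjusted p = 1.52e-08), while its call in OA (1.28-fold, adjusted p = 0.0195) was lost without OA replicate 1 (0.0864) or 2 (0.0551) or WT replicate 2 (0.0825). ACSS3, a mitochondrial propionyl-CoA synthetase, had the pattern of ACSL3 and ACSL4, with 219 ± 7.71 CPM in DNL, 52.6 ± 2.86 CPM in OA and 123 ± 5.50 CPM in WT. ACSF3, a mitochondrial malonyl-CoA synthetase, fell in both models, with 25.4 ± 3.29 CPM in DNL, 21.8 ± 2.77 CPM in OA and 34.7 ± 0.755 CPM in WT (adjusted p = 0.00261 and 0.00016).

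All 7 acyl-CoA binding proteins were tested, of which 2 rose in DNL against WT and 1 fell (median log2 fold change 0.19). The OA cells had 3 above and 3 below WT (median 0.0936), and DNL was above OA for 3 and below it for 2 (median -0.187). DBI, the acyl-CoA binding protein itself, rose 3.18-fold in DNL against WT, with 30.4 ± 6.12 CPM in DNL, 10.1 ± 2.07 CPM in OA and 9.56 ± 0.939 CPM in WT (adjusted p = 2.87e-06). SCP2, a peroxisomal thiolase and lipid carrier, had 75.3 ± 5.26 CPM in DNL, 35.5 ± 1.80 CPM in OA and 52.8 ± 2.20 CPM in WT. ACBD3, a Golgi scaffold, was higher in OA, with 78.6 ± 3.70 CPM in DNL, 113 ± 13.7 CPM in OA and 69.0 ± 0.993 CPM in WT (OA against WT, adjusted p = 3.71e-06). ACBD5, a peroxisomal tether, was also higher in OA (33.8 CPM in DNL, 48.5 CPM in OA and 38.6 CPM in WT), while ACBD4 was lower there (12.7 CPM in DNL, 4.60 CPM in OA and 15.9 CPM in WT). ACBD6 fell in DNL, where it had 17.1 CPM, with 19.9 CPM in OA and 26.9 CPM in WT.

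Acyl-CoA thioesterases undo activation by releasing the free acid. Of 9 tested, 4 rose in DNL against WT and 3 fell (median log2 fold change -0.16). The OA cells had 1 above and 5 below WT (median -0.469), and DNL was above OA for 3 and below it for 3 (median 0.0403). ACOT1 had 26.4 ± 2.53 CPM in DNL, 9.47 ± 1.24 CPM in OA and 16.1 ± 0.454 CPM in WT, and ACOT2, its near-identical mitochondrial copy, 43.8 ± 3.04 CPM in DNL, 42.4 ± 3.46 CPM in OA and 68.2 ± 4.10 CPM in WT. The split of reads between ACOT1 and ACOT2 is uncertain. ACOT13 had 11.8 CPM in DNL, 2.95 CPM in OA and 7.07 CPM in WT, on average. ACOT7 rose in OA (39.5 CPM in DNL, 48.4 CPM in OA and 34.7 CPM in WT), ACOT9 was lower in DNL than in OA (38.6 against 48.4 CPM), and BAAT, which conjugates bile acids, fell in DNL (3.56 CPM in DNL, 6.15 CPM in OA and 8.72 CPM in WT).

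**Figure D5:**
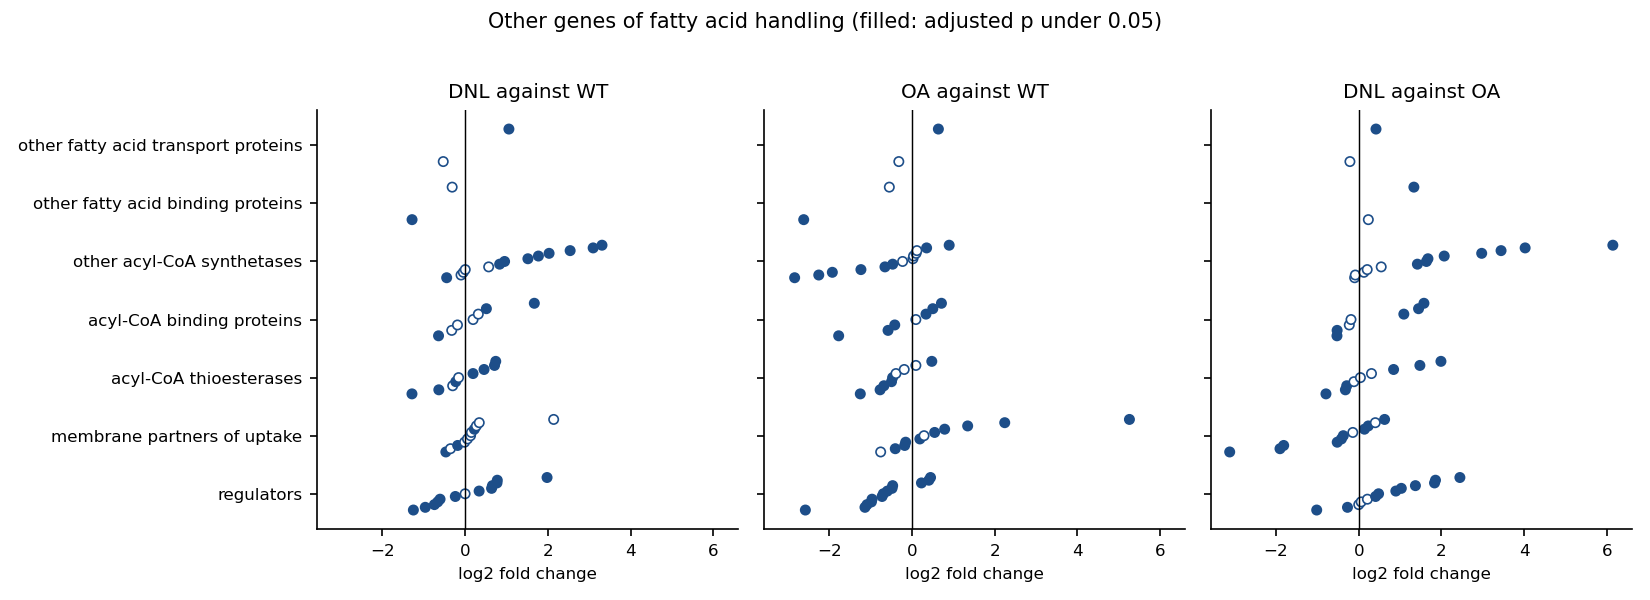
Log2 fold changes of the tested genes of the 7 pathway lists in DNL against WT, OA against WT and DNL against OA, 1 dot per gene, filled for an adjusted p under 0.05 (edgeR). The 13 other acyl-CoA synthetases lie mostly above 0 in DNL against WT, with 8 called higher and 1 lower. In OA against WT they lie on both sides of 0, with 2 called higher and 6 lower. Of all genes tested, 53.8% and 60.0% were called in these comparisons, in this order. Those called higher in DNL against WT include ACSM1, ACSM2A, ACSM2B and ACSM5, at 2.42, 1.75, 3.19 and 4.57 CPM on average in DNL.

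Of 11 membrane partners of uptake tested, 1 rose in DNL against WT and 2 fell (median log2 fold change 0.129). In OA against WT 6 rose and 3 fell (median 0.292), and DNL was above OA for 3 and below it for 6 (median -0.373). Without OA replicates 2 and 3, the OA rises over WT numbered 3 and the genes lower in DNL than in OA numbered 3. CAVIN1, a coat protein of caveolae, rose 2.54-fold in OA against WT, with 118 ± 2.99 CPM in DNL, 414 ± 12.2 CPM in OA and 163 ± 2.60 CPM in WT (adjusted p = 2.68e-11). Its level was even over the OA libraries, at 400.3, 424 and 416 CPM. The caveolins, chosen after their values were seen, were not, since CAV1 had 0.395, 0.824 and 4.51 CPM in OA replicates 1, 2 and 3 and at most 0.339 CPM in DNL and 0.135 CPM in WT, in step with the fibroblast markers, whose part was not tested. CAV1 had 5, 25 and 38 counts in OA, 0, 4 and 0 in WT and 11, 1 and 3 in DNL. It entered the tests through the OA libraries, so its rise there was not tested apart from the filter. The log2 fold changes of CAV1 and CAV2 in OA against WT were 3.83 and 1.31 without OA replicate 3. They were 3.12 and 0.848 without OA replicates 2 and 3.

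FYN, a kinase of CD36 signalling, rose in OA (17.3 CPM in DNL, 24.9 CPM in OA and 14.3 CPM in WT). ZDHHC5 and ZDHHC4, which palmitoylate CD36, had 183 and 46.4 CPM in DNL, 237 and 30.3 CPM in OA, and 208 and 39.8 CPM in WT, and the small rise of ZDHHC4 in DNL (1.17-fold, adjusted p = 0.012) was lost without WT replicate 3 (0.0585) and with library totals (0.495). GOT2, also known as plasma membrane fatty acid binding protein, was 1.11-fold lower in OA than in WT (adjusted p = 0.00649), a call lost with library totals (0.119) and without OA replicates 2 and 3 (0.0887). LYPLA1, a depalmitoylating enzyme, was 1.17-fold higher in DNL than in OA (log2 difference 0.23, adjusted p = 0.00724), while scaling by library totals gave a log2 difference of -0.00125.

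All 13 regulators passed the filter, and 6 of them rose in DNL against WT while 6 fell (median log2 fold change -0.00282). In OA against WT 3 rose and 10 fell (median -0.693), and DNL was above OA for 8 and below it for 2 (median 0.479). SREBF1, the sterol-response factor of fatty acid synthesis and an LXR target, had 309.9 ± 11.1 CPM in DNL, 57.1 ± 1.62 CPM in OA and 78.6 ± 1.44 CPM in WT, a 3.94-fold rise in DNL (adjusted p = 2.98e-12). PPARA, the nuclear receptor of fatty acid oxidation, had 145 ± 2.21 CPM in DNL, 56.0 ± 0.946 CPM in OA and 84.6 ± 2.34 CPM in WT (DNL against WT, adjusted p = 1.46e-08). PPARD, its relative, fell in both models, with 46.1 ± 2.17 CPM in DNL, 55.3 ± 2.63 CPM in OA and 109.6 ± 2.79 CPM in WT (adjusted p = 1.57e-09 and 1.41e-08). PPARGC1A, the coactivator PGC-1α, fell as well, most in OA, with 74.5 ± 1.40 CPM in DNL, 20.9 ± 0.583 CPM in OA and 125 ± 4.81 CPM in WT. NR1H2, which encodes LXRβ, had 17.2 ± 1.31 CPM in DNL, 35.0 ± 2.14 CPM in OA and 26.3 ± 1.18 CPM in WT. NR1H3, the other LXR gene, chosen after its values were seen, went the opposite way. It had 46.6 ± 3.84 CPM in DNL, 12.4 ± 3.29 CPM in OA and 27.4 ± 2.95 CPM in WT. SREBF2, the sterol-response factor of cholesterol synthesis, had 365 ± 17.5 CPM in DNL, 275 ± 13.7 CPM in OA and 234.5 ± 10.3 CPM in WT, and its rise in OA (adjusted p = 0.00163) was lost without OA replicates 2 and 3 (0.0869).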

How the data were processed

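RNA-seq of 9 HepG2 samples was used. The deposited table holds estimated counts per gene, made by the authors with kallisto 0.48.0 per the submitters' processing notes, after FastQC 0.11.9 and on GRCh38. For the annotation release and kallisto's strand setting, both not given in the sources used here, no assumption was made, so reads of overlapping genes or near-identical copies may be split between them. Of 19317 gene identifiers, 19316 matched a symbol and 19272 GENCODE release 29.

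Estimated counts were rounded, filtered with filterByExpr, scaled by TMM and tested in R 4.3.3 with edgeR 4.0.16 (glmQLFit and glmQLFTest, robust) in 1 fit of all 9 samples, over 13636 genes. Calls are Benjamini-Hochberg adjusted p under 0.05, a p-value of this fit and not a deposited one. Counts of replicates varied by 10.6% beyond sampling (common dispersion 0.0112). SE is that of the log2 fold change, and depth limits cover counting error only. Replicate pairs differed beyond sampling noise (chi-square per degree of freedom 5.29 to 15.8).

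The 10 genes, the lists and the tests were chosen with earlier results of these data known. Named list genes are, per list, comparison and direction, up to 2 called genes with the smallest adjusted p and at least 5 CPM in the higher group. Alternatives used DESeq2 1.42.0, limma 3.58.1 (voom), other scalings, filters, rounding, gene lengths, fewer samples and a replicate block. The fit was tested on simulated data.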

Additional observations from a re-analysis of the deposited data

How the results depend on the processing

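Over 19 alternatives, all 190 combinations of gene and alternative in DNL against WT kept their direction and side of the threshold. In OA against WT 185 did, 4 lost a call and 1 gained one, and in DNL against OA 168 did, 20 lost a call and 2 reversed. The reversals were ACSL1 in DNL against OA, at -0.20 with library totals and -0.017 without OA replicates 2 and 3, an alternative added after seeing the data; the cause was not tested. Without that pair of libraries the lone OA sample is assumed to vary like the other groups. Counts of calls from that fit, given above for the lists, therefore cannot be set against those of the full fit. Leaving out single libraries left 7 of the 10 genes higher and 2 lower in DNL against WT throughout, 2 to 3 higher and 6 to 7 lower in OA against WT, and 4 to 6 higher and 2 to 3 lower in DNL against OA. Over all genes, 6468 to 7664, 7509 to 8223 and 7983 to 8534 were then called in these comparisons, in this order. Whether replicate numbers pair the samples was not settled. Deviations of same-numbered libraries correlated at -0.018 to 0.053 over 9 pairs and the others at -0.063 to 0.044. Yet 12 of 18 cases were nearest to their own number, and FABP1 fell from replicate 1 to 3 in every group. A replicate block in the fit lowered the SE of FABP1 from 0.186 to 0.0574 in DNL against WT. In DNL against OA that SE went from 0.224 to 0.0697. With the replicate block, 5 instead of 6 of the 10 genes were higher in DNL than in OA, as CD36 lost its call (adjusted p = 0.0568), and 7245, 8099 and 8472 genes were called in DNL against WT, OA against WT and DNL against OA, instead of 7342, 8188 and 8557. With no filter FABP5 lost its call in DNL against OA (0.0507). In the order per length, 4 of the 10 genes in DNL, 3 in OA and 5 in WT stayed in place with principal transcripts, and 6 in OA with the longest transcript. Depth limits SLC27A5 most, with 8 counts in its lowest library, and then FABP1, CD36, SLC27A2 and FABP5, with 65, 89, 105 and 108.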
